A study of Mus musculus with 48 samples.

Results

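The mitosis and G2/M genes are 40 genes of the 42713 in the deposited tables. They were chosen by symbol for what their products do in cell division, with earlier results of these data known. They are mitotic kinases and cyclins, kinesins, spindle checkpoint and kinetochore proteins, ubiquitin enzymes of mitotic exit, cytokinesis proteins, and the transcription factors FOXM1 and B-MYB. RNA was sequenced in glucagon-producing α cells and insulin-producing β cells, sorted by fluorescence from mouse islets. All animals were male, 6 to 8 weeks old, and carried the same alleles, namely the α and β cell reporters ProGcg-Venus and RIP-Cherry, the clock reporter PER2::Luc, and the toxin system of Insulin-rtTA and TET-DTA. In DOX mice, 300 mg of doxycycline in drinking water with 2% sucrose switched on diphtheria toxin A through the insulin promoter, which ablates β cells massively. CTR mice carried the same transgenes and drank 2% sucrose water alone. Light and dark alternated every 12 h, and food was given only at night from 10 days before sampling. Some of the animals were held on inverted cycles for 2 weeks, so that all times could be sampled. Cells were taken every 4 h, at zeitgeber time (ZT, hours after lights on) 0, 4, 8, 12, 16 and 20. DOX β, CTR β, DOX α and CTR α cells gave 2 libraries each at every time, hence 12 per condition and 48 in all. DOX β cells are those that the sort gave after the ablation, and their origin was not measured. No group received doxycycline without the toxin. Effects of the drug and of the ablation therefore cannot be told apart.

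A cell that has copied its DNA enters mitosis when CDK1, bound to cyclin A or B, becomes active. Kinases of the Aurora and Polo families and kinesins then build the spindle, the checkpoint holds the cell until every kinetochore is attached, and the anaphase-promoting complex destroys cyclin B so that the cell can divide. Most of these genes are transcribed only late in the cycle, so their RNA is low in tissue that rarely divides, such as the adult islet. A rise in a bulk sample can reflect more cells in cycle or more RNA per cell, and these cannot be told apart here.

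Libraries held 16.1 to 69.9 M estimated counts, with 16.1 to 28.6 M in the 20 libraries of an earlier sequencing run and 37.4 to 69.9 M in the 28 of a later run. Replicate 1 at every time but ZT0 belongs to the earlier run. The hormone genes fitted the labelled cell types. Ins2 took 16.5 to 23.6% of counts in DOX β libraries and 17.5 to 26.4% in CTR β libraries, and at most 0.274% in α libraries. Gcg took 24.8 to 39.6% in DOX α and 25.8 to 36.0% in CTR α libraries, and at most 0.0439% in β libraries. The labels do not say that duplicates came from separate animals, so p-values measure the spread between these samples.

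Promoters of the members show what these genes share beyond their roles. Late cell cycle genes are known to carry a CHR (cell cycle genes homology region), the letters TTTGAA or TTCGAA, through which the MuvB complexes act, often below CCAAT boxes, the site of NF-Y. RefSeq promoter windows of GRCm38.p6, from 250 bases before to 50 after the annotated start, were found for 34 members. Aurkb, Ccna2, Cdc25c, Foxm1, Kif20a and Tpx2 had no entry. The stretches below, 130 bases before to 30 after the start, read 5′ to 3′ on the gene's strand. They were taken, with the results known, because they hold both motifs, from the kinase Cdk1, its cyclin partner Ccnb2, the checkpoint kinase Bub1, the mitotic exit genes Cdc20 and Ube2c, the gene with the largest fold change (Hmmr), the cytokinesis gene Prc1 and the outlying member Spc25. Capitals mark CCAAT or TTTGAA or TTCGAA on either strand.
Cdk1 (chr10:69352883-69353042, minus strand): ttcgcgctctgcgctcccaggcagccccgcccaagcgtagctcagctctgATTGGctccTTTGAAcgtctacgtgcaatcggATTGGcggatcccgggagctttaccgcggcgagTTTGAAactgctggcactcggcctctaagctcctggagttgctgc
Ccnb2 (chr9:70421525-70421684, minus strand): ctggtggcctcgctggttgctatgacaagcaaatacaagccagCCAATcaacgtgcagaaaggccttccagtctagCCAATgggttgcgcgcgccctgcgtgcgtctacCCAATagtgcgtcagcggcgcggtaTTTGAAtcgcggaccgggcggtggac
Bub1 (chr2:127831830-127831989, minus strand): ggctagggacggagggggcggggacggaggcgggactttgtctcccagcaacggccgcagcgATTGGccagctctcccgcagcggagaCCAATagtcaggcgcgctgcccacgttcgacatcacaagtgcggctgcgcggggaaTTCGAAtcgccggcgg
Cdc20 (chr4:118437314-118437473, minus strand): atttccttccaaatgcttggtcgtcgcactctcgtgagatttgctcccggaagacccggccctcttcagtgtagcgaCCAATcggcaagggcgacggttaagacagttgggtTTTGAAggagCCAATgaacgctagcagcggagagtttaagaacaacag
Ube2c (chr2:164769799-164769958, plus strand): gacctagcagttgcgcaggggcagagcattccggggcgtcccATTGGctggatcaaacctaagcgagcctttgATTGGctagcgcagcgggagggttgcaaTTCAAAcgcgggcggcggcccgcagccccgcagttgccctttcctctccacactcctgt
Hmmr (chr11:40733408-40733567, minus strand): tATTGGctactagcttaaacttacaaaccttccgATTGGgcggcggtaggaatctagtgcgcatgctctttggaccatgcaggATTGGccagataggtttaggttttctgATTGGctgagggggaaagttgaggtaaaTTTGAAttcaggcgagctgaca
Prc1 (chr7:80294321-80294480, plus strand): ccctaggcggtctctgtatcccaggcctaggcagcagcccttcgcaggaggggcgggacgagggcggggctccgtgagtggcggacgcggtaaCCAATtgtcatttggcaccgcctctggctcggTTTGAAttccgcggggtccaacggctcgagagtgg
Spc25 (chr2:69206184-69206343, minus strand): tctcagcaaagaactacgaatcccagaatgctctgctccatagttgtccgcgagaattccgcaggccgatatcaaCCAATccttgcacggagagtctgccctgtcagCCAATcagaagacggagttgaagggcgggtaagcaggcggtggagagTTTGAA

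Each of these stretches holds the CHR letters within 50 bases of the start, and every CCAAT lies before the start. The CHR letters, on either strand, occurred in 27 of 34 member windows (79.4%), against 13.5% of 11062 windows of genes tested in β cells and 19.2% of all 32817 windows. CCAAT occurred in 73.5% of member windows, against 38.3% of windows of tested genes and 37.4% of all windows. Both motifs together were in 67.6% of member windows, against 5.73% of tested genes and 7.51% of all windows. The letters of an E2F site of the S phase type, TTTCGCGC or TTTGGCGC, were in 2.94% of member windows and 1.55% of those of tested genes. In a list of 18 DNA replication and S phase windows, 38.9% held them and 22.2% held the CHR letters. CCAAT was in 72.2% of the windows of that list, near the share in members, and both motifs together were in 16.7%. CACGTG, the E-box letters bound by the clock proteins CLOCK and BMAL1 and also by MYC, was in 5.88% of member windows, 9.99% of those of tested genes and 7.15% of all windows. In windows that end at the start, the CHR letters were in 29.4% of members and 12.0% of tested genes, and both motifs were in 26.5% of members and 4.74% of tested genes. A match of letters is a description and does not show binding.

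**Figure D1:**
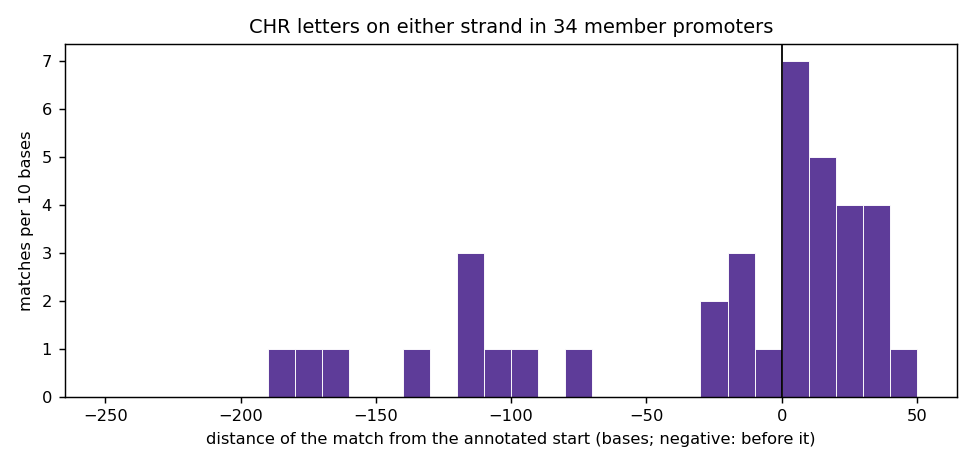
Distance of every match of the CHR letters from the annotated start (horizontal axis, bases) and matches per 10 bases (vertical axis) in the 34 member windows. A match within 50 bases of the start was found in 25 of 34 members (73.5%), against 3.37% of 11062 tested genes, so most matches crowd around the start and few lie farther before it.

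In β cells, every member was higher after DOX. All 40 passed the filter on low counts and 40 were called higher at an adjusted p under 0.05 (edgeR's quasi-likelihood test over 15188 genes), where 46.9% of all genes were called and 23.8% were called higher. The median log2 fold change of the members was 1.63, against -0.01 over all genes tested, and 35 of 40 members were at least 2-fold higher, against 1311 of the 15188 genes. Levels are in CPM, counts divided by the library's total after TMM scaling, given as the lowest, median and highest of the 12 libraries of a condition.

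Of the 9 role groups, the cyclins, CDK1 and its phosphatase had the highest median log2 fold change, 1.78. Cdk1, the kinase that drives entry, had 9.2, 12.6 and 26.9 CPM in DOX β libraries, against 2.02, 4.31 and 5.77 CPM in CTR β libraries. Every DOX library stood above every CTR library, and the log2 fold change was 1.88 ± 0.22 (SE, edgeR adjusted p = 9.86e-07), or 3.67-fold. Ccnb1, the B cyclin that activates CDK1, had 4.52, 7.54 and 13.8 CPM in DOX β libraries, against 1.16, 2.08 and 3.87 CPM in CTR β libraries, again with no overlap, and a log2 fold change of 1.88 ± 0.22 (SE, edgeR adjusted p = 1.27e-06). Cdc25c, the phosphatase that releases CDK1 from its inhibitory phosphates, was low in both groups, with 0.911, 1.94 and 3.55 CPM in DOX β libraries, against 0.344, 0.493 and 0.949 CPM in CTR β libraries. For Cdc25c, 11 of 12 DOX libraries exceeded every CTR library, and its log2 fold change was 1.78 ± 0.23 (SE, edgeR adjusted p = 4.52e-06). Ccna2 (cyclin A, which acts in S phase and G2) and Ccnb2 rose less, with log2 fold changes of 1.22 ± 0.17 and 1.30 ± 0.22 (SE).

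At the spindle poles, Plk1, a Polo kinase of centrosome maturation, had 5.65, 8.43 and 18.4 CPM in DOX β libraries, against 1.13, 2.66 and 4.66 CPM in CTR β libraries. Its log2 fold change of 1.91 ± 0.25 (SE, edgeR adjusted p = 4.49e-06) was the second largest of the 40. Tpx2, which activates Aurora A and nucleates spindle microtubules, had 8.16, 15.4 and 27.4 CPM in DOX β libraries, against 2.12, 4.07 and 7.95 CPM in CTR β libraries. The 2 groups of Tpx2 values did not overlap, and the log2 fold change was 1.85 ± 0.22 (SE, edgeR adjusted p = 1.12e-06). Aurka, the kinase that TPX2 activates, had 4.56, 8.05 and 17.2 CPM in DOX β libraries, against 2.64, 4.08 and 5.78 CPM in CTR β libraries, with 11 of 12 DOX libraries above every CTR library, and a log2 fold change of 1.08 ± 0.16 (SE, edgeR adjusted p = 2.04e-05). Tacc3, which stabilises spindle microtubules with Aurora A, gave one of the smallest fold changes, 0.7 ± 0.13 (SE, edgeR adjusted p = 1.56e-04) on the log2 scale, from 7.52, 9.54 and 16 CPM in DOX β libraries, against 4.92, 6.29 and 9.19 CPM in CTR β libraries. The 3 members that encode parts of the chromosomal passenger complex, which corrects wrong attachments at the centromere, rose alike. Aurkb, its kinase, had 1.98, 3.69 and 8.02 CPM in DOX β libraries, against 0.685, 1.23 and 2.23 CPM in CTR β libraries, and 11 of 12 DOX libraries exceeded every CTR library. The log2 fold change was 1.62 ± 0.17 (SE, edgeR adjusted p = 3.26e-07) for Aurkb. Birc5 (survivin) had 3.17, 4.25 and 11.5 CPM in DOX β libraries, against 0.857, 1.56 and 2.58 CPM in CTR β libraries, without overlap, and a log2 fold change of 1.73 ± 0.20 (SE, edgeR adjusted p = 8.17e-07). Cdca8 (borealin) had 3.31, 5.46 and 12.9 CPM in DOX β libraries, against 0.934, 1.61 and 3.45 CPM in CTR β libraries, and 11 of 12 DOX libraries exceeded every CTR library. Its log2 fold change was 1.78 ± 0.22 (SE, edgeR adjusted p = 2.73e-06).

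The 9 checkpoint and kinetochore genes were all called higher, with a median log2 fold change of 1.64 and a range from 0.43 to 1.86. Ndc80, the subunit that grips the microtubule, had 2.94, 4.74 and 10.7 CPM in DOX β libraries, against 0.514, 1.22 and 2.23 CPM in CTR β libraries, without overlap, and a log2 fold change of 1.86 ± 0.24 (SE, edgeR adjusted p = 3.25e-06). Ttk, the kinase that starts checkpoint signalling, had 1.64, 2.83 and 5.92 CPM in DOX β libraries, against 0.56, 0.873 and 1.7 CPM in CTR β libraries and a log2 fold change of 1.66 ± 0.21 (SE, edgeR adjusted p = 2.85e-06). Cenpf, a large protein of the outer kinetochore, had 7.74, 15.8 and 26.5 CPM in DOX β libraries, against 2.05, 4.06 and 10.7 CPM in CTR β libraries, and its log2 fold change was 1.8 ± 0.22 (SE, edgeR adjusted p = 1.85e-06). Spc25 lies apart from this group although its product sits in the same complex as NDC80. It had 143, 211 and 296 CPM in DOX β libraries, against 86.9, 141 and 318 CPM in CTR β libraries, no DOX library exceeded the highest CTR library, and the log2 fold change of 0.43 ± 0.14 (SE, edgeR adjusted p = 0.0132) was the smallest of the 40.

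Per length, Spc25 was also the outlying member. It averaged 66 ± 17.2 RPKM in DOX β cells and 49.9 ± 18.6 RPKM in CTR β cells (SD, n = 12 each), whereas Cdc20, the next member in DOX β cells, averaged 8.23 ± 2.88 RPKM in DOX β cells and 2.34 ± 0.966 RPKM in CTR β cells (SD, n = 12 each). The next member in CTR β cells was Kif20a, with 5.13 ± 1.53 RPKM in DOX β cells and 2.9 ± 0.52 RPKM in CTR β cells (SD, n = 12 each). The lowest in both was Mybl2, with 0.274 ± 0.124 RPKM in DOX β cells and 0.159 ± 0.102 RPKM in CTR β cells (SD, n = 12 each). Spc25 lies on chromosome 2, on the minus strand, 4879 bases from G6pc2, a β cell gene on the other strand that averaged 3524 CPM in DOX and 2898 CPM in CTR β libraries. The library kit does not mark strand, and the part of reads from neighbouring transcripts in the Spc25 values was not tested. Kif20a overlaps Cdc23 on the opposite strand over 2315 bases (Cdc23 averaged 50.8 CPM in DOX and 57.8 CPM in CTR β libraries), so its reads cannot be told apart there, and overlaps with other expressed genes on the opposite strand touch Ccna2, Tacc3, Cdca8, Cdc20, Kif4, Nusap1 and Prc1. Because Spc25 made up 16.2 to 43.1% of the members' summed CPM in DOX β and 32.4 to 63.8% in CTR β libraries, sums are given over the other 39 members, a choice made after the levels were seen.

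Genes of mitotic exit rose together. Cdc20, which activates the anaphase-promoting complex, had 7.12, 16.5 and 22.9 CPM in DOX β libraries, against 1.64, 3.81 and 7.21 CPM in CTR β libraries, and its log2 fold change was 1.79 ± 0.22 (SE, edgeR adjusted p = 2.41e-06). Ube2c, the ubiquitin-conjugating enzyme of that complex, had 5.0, 11.2 and 19.9 CPM in DOX β libraries, against 1.91, 3.7 and 5.01 CPM in CTR β libraries and a log2 fold change of 1.76 ± 0.22 (SE, edgeR adjusted p = 2.07e-06). For either gene, 11 of 12 DOX libraries exceeded every CTR library. Cdca3, a trigger of mitotic entry that the complex later degrades, had 6.13, 10.4 and 22.3 CPM in DOX β libraries, against 2.6, 3.46 and 6.13 CPM in CTR β libraries, without overlap, and a log2 fold change of 1.49 ± 0.18 (SE, edgeR adjusted p = 1.38e-06). Among spindle motors and microtubule binders, Hmmr, a spindle protein first known as a hyaluronan receptor, had 5.43, 13.6 and 23.1 CPM in DOX β libraries, against 1.6, 2.97 and 6.1 CPM in CTR β libraries. Its log2 fold change of 2.01 ± 0.24 (SE, edgeR adjusted p = 1.19e-06), or 4.03-fold, was the largest of the 40. Kif11, the kinesin that pushes the poles apart, had 7.52, 11.1 and 20.7 CPM in DOX β libraries, against 2.43, 3.72 and 8.02 CPM in CTR β libraries and a log2 fold change of 1.48 ± 0.19 (SE, edgeR adjusted p = 2.74e-06). For Kif11, 9 of 12 DOX libraries exceeded every CTR library. Nusap1, which bundles spindle microtubules, had 6.25, 8.79 and 20.4 CPM in DOX β libraries, against 1.92, 3.43 and 5.44 CPM in CTR β libraries, without overlap, and a log2 fold change of 1.54 ± 0.18 (SE, edgeR adjusted p = 1.32e-06).

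Cytokinesis genes were all called higher, with a median log2 fold change of 1.39 over 7 members. Anln (anillin), a scaffold of the contractile ring, had 6.83, 11.7 and 20.6 CPM in DOX β libraries, against 2.62, 3.6 and 6.38 CPM in CTR β libraries, without overlap, and a log2 fold change of 1.59 ± 0.18 (SE, edgeR adjusted p = 7.44e-07). Prc1, which bundles the microtubules of the midzone, had 8.61, 17.6 and 32.2 CPM in DOX β libraries, against 4.25, 6.76 and 8.55 CPM in CTR β libraries and a log2 fold change of 1.39 ± 0.18 (SE, edgeR adjusted p = 2.92e-06). Every DOX value of Prc1 exceeded every CTR value. Kif20a, the kinesin that carries the passenger complex to the midzone, had 12, 18.7 and 27.2 CPM in DOX β libraries, against 8.52, 10.5 and 14.5 CPM in CTR β libraries, with 9 of 12 DOX libraries above every CTR library, and a smaller log2 fold change of 0.8 ± 0.10 (SE, edgeR adjusted p = 1.58e-06). Top2a, the topoisomerase that untangles sister chromatids, had 31.6, 54.2 and 114 CPM in DOX β libraries, against 13.4, 17.6 and 37.7 CPM in CTR β libraries, and a log2 fold change of 1.48 ± 0.20 (SE, edgeR adjusted p = 4.78e-06). Mki67, the Ki-67 protein that coats mitotic chromosomes and is the usual stain for cycling cells, had 17.9, 44.3 and 90.3 CPM in DOX β libraries, against 6.61, 9.38 and 22.9 CPM in CTR β libraries. For Mki67, 10 of 12 DOX libraries exceeded every CTR library, and the log2 fold change was 1.83 ± 0.23 (SE, edgeR adjusted p = 2.28e-06). Both transcription factors had smaller fold changes than the median member. Foxm1 had 6.34, 10.7 and 23.7 CPM in DOX β libraries, against 2.79, 5.2 and 8.83 CPM in CTR β libraries and a log2 fold change of 1.19 ± 0.21 (SE, edgeR adjusted p = 8.44e-05). Mybl2 (B-MYB) had 0.248, 1.26 and 2.1 CPM in DOX β libraries, against 0.174, 0.557 and 1.73 CPM in CTR β libraries, and its log2 fold change was 0.79 ± 0.28 (SE, edgeR adjusted p = 0.0238).

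**Figure D2:**
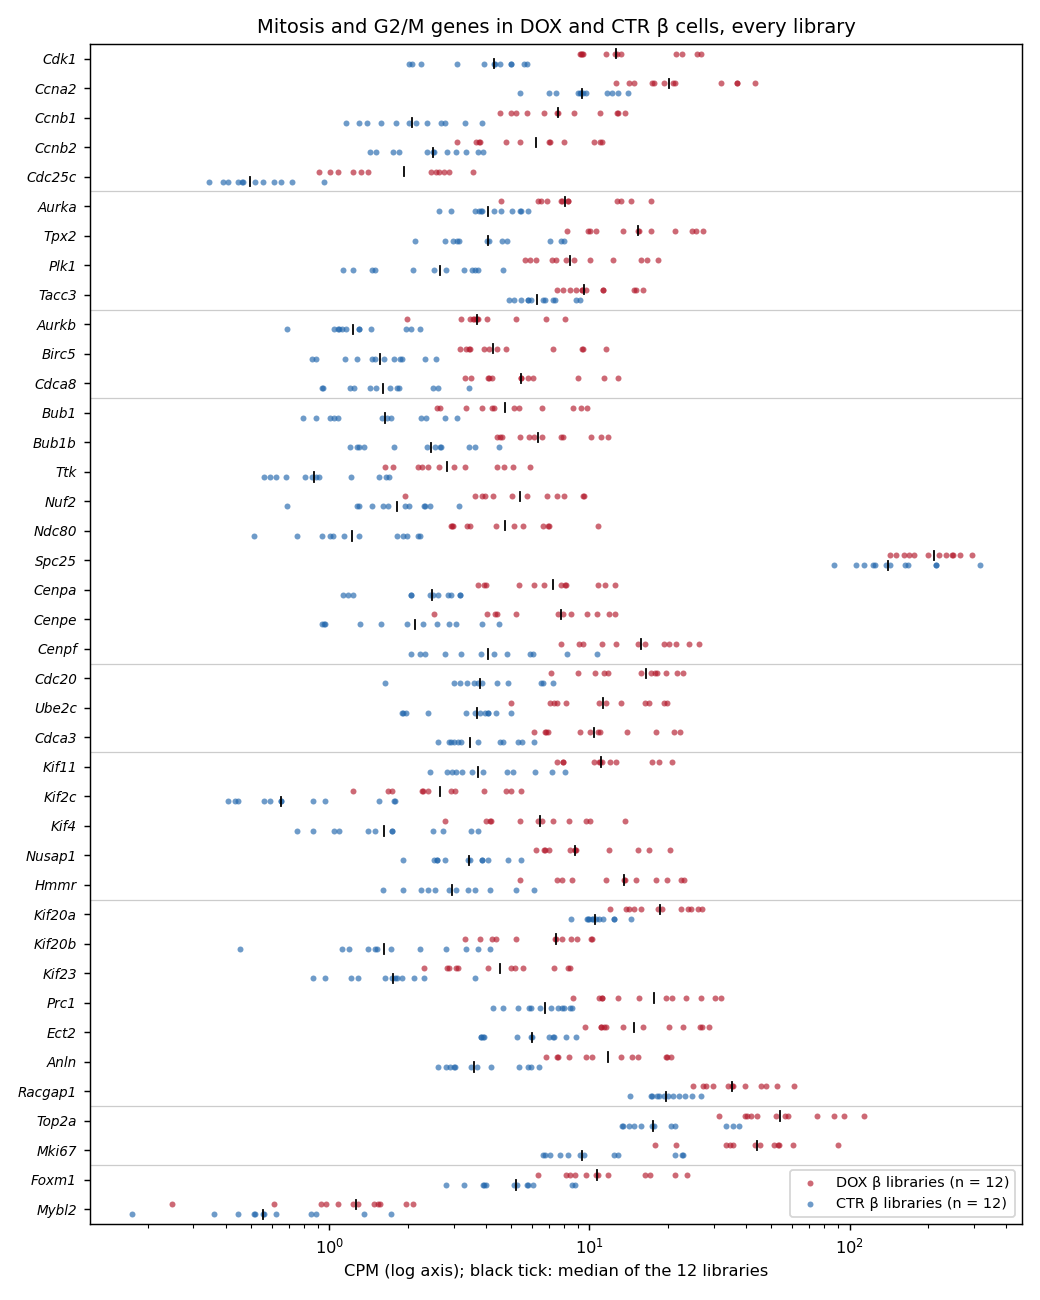
Every β library's level of each member in CPM (horizontal axis, log scale), DOX libraries above CTR libraries within each gene, with grey lines between role groups and a black tick at the median of 12 libraries. DOX medians lie to the right of CTR medians for all 40 genes, Spc25 sits far to the right of the rest in both groups, and 12 genes show no overlap between the groups.

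Every DOX β library stood above every CTR β library for 12 members, where 1.36% of the genes tested did so and 1.12% showed the reverse. At a given time the separation was more general. Both DOX libraries exceeded both CTR libraries at all 6 times for 34 members (4.73% of genes tested), and 36 members were higher in DOX in all 12 pairs of libraries of the same time and number (7.6% of genes tested). Summed over the 39 members other than Spc25, the lowest, median and highest library had 272, 469 and 832 CPM in DOX β cells, against 114, 155 and 261 CPM in CTR β cells. The groups did not overlap in this sum. DOX α libraries summed to 68.5, 104.3 and 149 CPM and CTR α libraries to 57.1, 73.7 and 107 CPM.

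The size of the rise differed between sequencing runs in the same direction for nearly every gene, although the difference was called for none. In the earlier run the median log2 fold change was 2.11 and 38 members were called higher (17.7% of genes), and in the later run it was 1.30 and 39 were called (13.9% of genes). Spc25 and Mybl2 lost the call in the earlier run and Mybl2 in the later one. Foxm1 had a log2 fold change of 1.99 ± 0.25 (SE) in the earlier and 0.71 ± 0.18 (SE) in the later run, the difference with the lowest p of the 40 (adjusted p = 0.191, edgeR; unadjusted p = 5.0e-04). Of the 40 members, 39 had the larger fold change in the earlier run. For the difference, 0 members passed the adjusted threshold, where 0.0461% of all genes did (0.00658% larger and 0.0395% smaller in the later run). Within the earlier run, DOX and CTR libraries did not overlap for 34 members (7.6% of genes tested), and within the later run for 16 (3.07%). The 39 members summed to 382, 737 and 832 CPM (lowest, median, highest) in the 5 earlier DOX β libraries and to 272, 348 and 505 CPM in the 7 later ones. In CTR β cells these sums were 124, 155 and 260.3 CPM in the earlier and 114, 155 and 261 CPM in the later run, so the medians of the runs were apart in DOX β cells and alike in CTR β cells. Duplicates at 5 of the 6 times are split between the runs, so that run and sample cannot be told apart within a time.

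**Figure D3:**
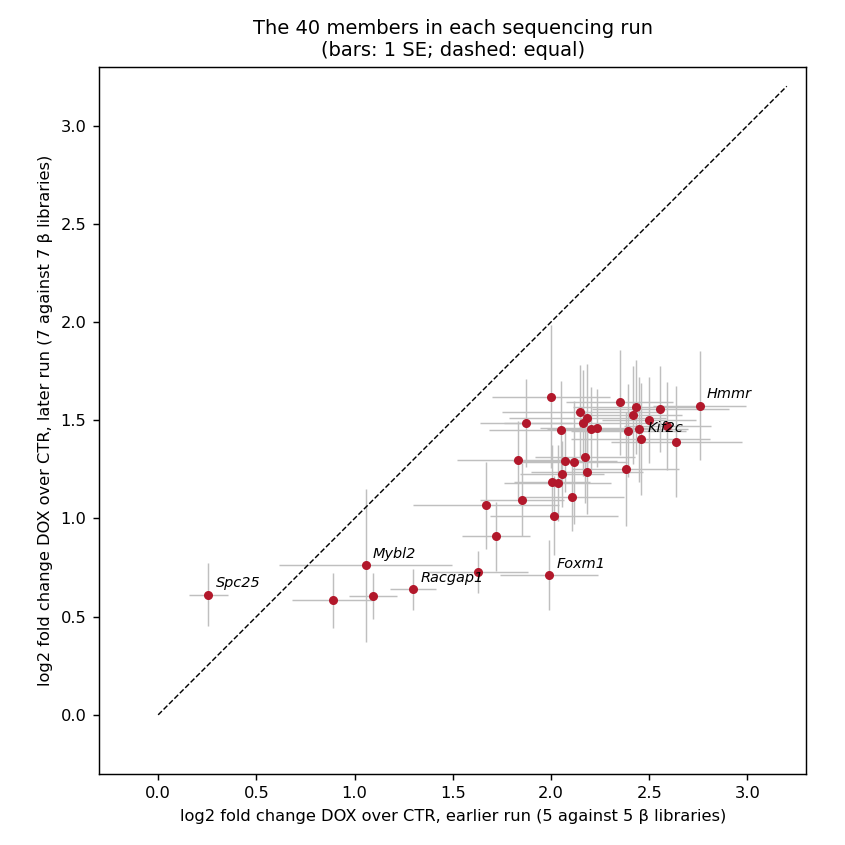
Log2 fold change of DOX over CTR β cells for each member in the earlier run (horizontal axis, 5 against 5 libraries) and in the later run (vertical axis, 7 against 7), with bars of 1 SE and a dashed line of equal values. All points but that of Spc25 lie below the line, and all are above 0 in both runs.

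Other genes of the same machinery were counted from lists made by function. Of 20 further kinetochore and centromere genes, 19 were called higher and 0 lower, with a median log2 fold change of 1.14. Knl1, the scaffold that recruits the checkpoint kinase BUB1, had 2.53, 5.16 and 12.1 CPM in DOX β libraries, against 0.747, 1.34 and 3.09 CPM in CTR β libraries and a log2 fold change of 1.76 ± 0.23 (SE, edgeR adjusted p = 3.50e-06). Of 14 further kinesins and spindle genes, 12 were higher and 0 lower (median 1.54), and of 8 condensin subunits, which compact mitotic chromosomes, 7 were higher and 0 lower (median 1.0). Smc2 of condensin had 10.1, 16 and 22.6 CPM in DOX β libraries, against 3.9, 5.84 and 9.47 CPM in CTR β libraries and a log2 fold change of 1.33 ± 0.15 (SE, edgeR adjusted p = 6.29e-07). DNA replication and S phase genes were higher in 21 of 22 and lower in 1, Gins2, with a median of 0.95. Rrm2, a subunit of the enzyme that makes deoxynucleotides, had 14.5, 18.8 and 30.8 CPM in DOX β libraries, against 4.67, 7.56 and 13.2 CPM in CTR β libraries and a log2 fold change of 1.41 ± 0.15 (SE, edgeR adjusted p = 5.46e-07). Subunits of the anaphase-promoting complex, which is present through the cycle, went both ways. Of 13, 2 were higher and 4 lower, with a median of -0.06, and Cdc23 had a log2 fold change of -0.18 ± 0.04 (SE, edgeR adjusted p = 6.03e-04).

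Among 7 cell cycle regulators (Wee1, Pkmyt1, Cdkn1a, Cdkn1b, Cdkn1c, Cdkn2c and Fbxo5), 4 were higher and 2 lower. Cdkn1a (p21) had 28.7, 47 and 125 CPM in DOX β libraries, against 10.2, 18 and 84.1 CPM in CTR β libraries, and its log2 fold change was 1.39 ± 0.20 (SE, edgeR adjusted p = 1.38e-05). Pkmyt1, a kinase that holds CDK1 inactive, had a log2 fold change of 1.0 ± 0.15 (SE, edgeR adjusted p = 1.68e-05). Those lower were Cdkn1b and Cdkn1c (p27 and p57). Genes of the E2F, pocket protein and MuvB families were mixed, with 10 of 18 higher and 4 lower (E2f4, E2f5, Rb1 and Rbl2). E2f8, a late repressor of the family, had 1.95, 5.05 and 11.3 CPM in DOX β libraries, against 0.409, 0.95 and 2.5 CPM in CTR β libraries and a log2 fold change of 2.18 ± 0.29 (SE, edgeR adjusted p = 5.73e-06). The lower genes of this list include the repressors of resting cells, p130 (Rbl2) and E2F4.

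All 15 macrophage and dendritic cell markers were higher in DOX β cells (median log2 fold change 2.33), and none was at 0 in any of these libraries. Their summed level had a lowest, median and highest value of 149, 870.2 and 1825 CPM in DOX β libraries, against 58.9, 209.8 and 431 CPM in CTR β libraries. Cd74 and C1qa, highest in mean CPM over the 4 conditions, had medians of 238 and 107 CPM in DOX, against 52.3 and 39.4 CPM in CTR β libraries. The 2 DOX β libraries whose macrophage sum fell within the CTR range (149 and 338 CPM) had 449 and 832 CPM of the 39 mitotic members. The lowest DOX β library had 272 CPM of these members and the highest CTR β library 261 CPM. With the mean log2 CPM of the macrophage markers as a covariate, 37 of 40 members were called higher (12.1% of all genes), at a median log2 fold change of 1.38. Ccnb2 (adjusted p = 0.0512), Tacc3 (0.0645) and Mybl2 (0.725) lost the call. The markers themselves rose with DOX, so this covariate cannot separate macrophages from treatment. The part of macrophages in the rise of the members was not tested.

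Markers of other cell types moved less evenly. Fibroblast markers were higher in 4 of 7 tested, from a summed 1.08, 29.2 and 395 CPM in DOX and 0.318, 9.47 and 52.6 CPM in CTR β libraries. T and B cell markers summed to 2.86, 7.18 and 13.8 CPM in DOX and 5.78, 9.18 and 25.1 CPM in CTR β libraries, with 1 higher and 1 lower of 4 tested and Cd3e, which marks T cells, at 0 in 6 libraries of each group. Endothelial markers were higher in 2 of 6, duct markers higher in 2 and lower in 1 of 6, and acinar markers called in 0 of 12. Acinar markers summed to at most 5499 CPM in DOX and 285 CPM in CTR β libraries. Delta and PP cell markers were higher in 5 of 6, α cell markers higher in 4 and lower in 1 of 6, and β cell markers higher in 2 and lower in 5 of 10. The part of these cells in the rise of the members was not tested. Ins1 and Ins2 themselves had log2 fold changes of -0.03 ± 0.13 (SE, edgeR adjusted p = 0.878) and -0.09 ± 0.13 (SE, edgeR adjusted p = 0.6), neither called.

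In α cells, which the toxin does not target, members leaned the same way but none was called. Of 40 members, 39 passed the filter (Cdc25c did not) and 0 were called with edgeR, where 0.127% of all genes were (0.0804% higher and 0.0469% lower). All 39 had a positive log2 fold change, with a median of 0.49 against -0.00 over all genes. Top2a had 4.75, 9.06 and 16.4 CPM in DOX α libraries, against 2.25, 5.11 and 12.2 CPM in CTR α libraries. The ranges overlapped, and the log2 fold change was 0.71 ± 0.20 (SE, edgeR adjusted p = 0.216). DESeq2 called Top2a (log2 fold change 0.72, adjusted p = 0.0300) and so did edgeR in the earlier run alone (0.86, adjusted p = 0.0256), while its adjusted p ran from 0.12 in the fit with no filter to 0.960 in the later run alone under the other alternatives that left out no single library. Hmmr had 0.73, 1.67 and 3.17 CPM in DOX α and 0.496, 1.14 and 2.27 CPM in CTR α libraries, with a log2 fold change of 0.69 ± 0.23 (SE, edgeR adjusted p = 0.337). For Spc25, with 12.5, 37.3 and 49.8 CPM in DOX α and 9.53, 21.3 and 46.7 CPM in CTR α libraries, it was 0.6 ± 0.20 (SE, edgeR adjusted p = 0.347). Macrophage markers summed to 61.8, 89.3 and 153 CPM in DOX α and 43.3, 77.0 and 133 CPM in CTR α libraries.

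The DOX effect was larger in β than in α cells for 32 of 40 members by the interaction of treatment and cell type (12.7% of 16207 genes), and smaller for 0. This fit did not block β and α libraries of the same time and number. The median difference was 1.01 on the log2 scale. Cdc20 differed by 1.5 ± 0.29 (SE, edgeR adjusted p = 2.09e-04), and Ect2, the exchange factor that starts furrowing, by 1.25 ± 0.25 (SE, edgeR adjusted p = 2.24e-04). Kif20a, which overlaps Cdc23, differed by 0.76 ± 0.14 (SE, edgeR adjusted p = 7.50e-05). The members without a called difference were Aurkb, Bub1, Nuf2, Spc25, Cenpe, Kif2c, Kif23 and Mybl2, named after their values were seen. Spc25 was the only member of negative sign, with a difference of -0.18 ± 0.25 (SE, edgeR adjusted p = 0.66). The count depended on the run. It was 28 members in the earlier run alone (7.46% of genes) and 5 in the later run alone (4.29% of genes), namely Aurka, Plk1, Cdc20, Kif20a and Ect2, at median differences of 1.55 and 0.67. With the macrophage covariate it was 22 (10.4% of genes).

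**Figure D4:**
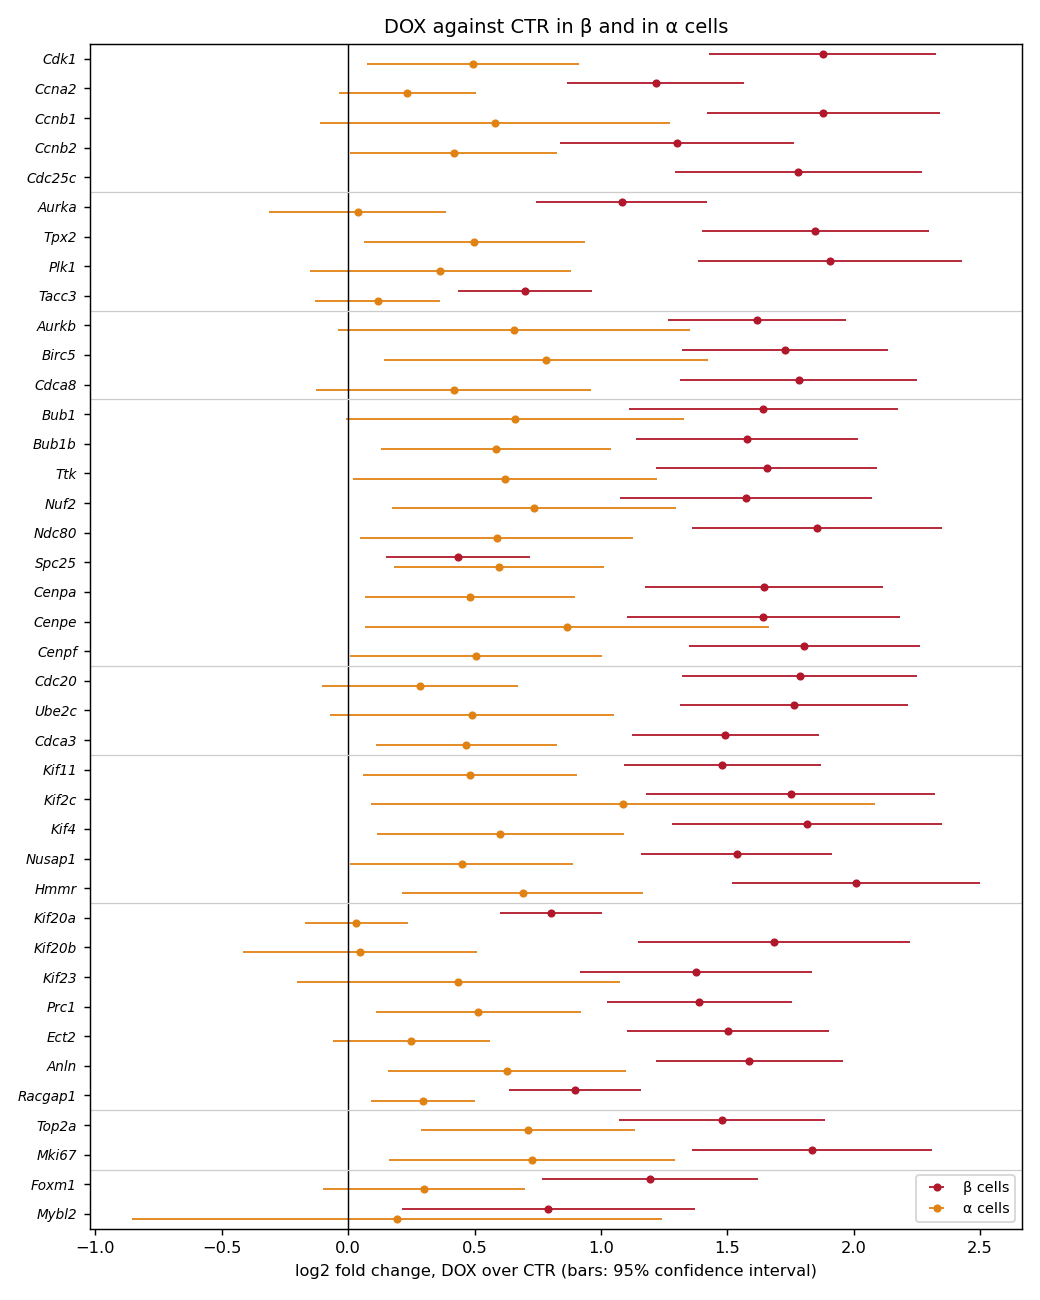
Log2 fold change of DOX over CTR for every member in β cells (upper point of each row) and in α cells (lower point), with bars for the 95% confidence interval and grey lines between role groups. The β intervals lie above 0 for all 40 genes, the α values crowd between 0.03 and 1.09, and Spc25 is the gene whose α value is above its β value.

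β and α cells differed before any ablation. In CTR mice 39 of 40 members were higher in β than in α cells (71.4% of 14945 genes were called, 34.2% higher), Kif20b being the exception (0.27 ± 0.28 (SE, edgeR adjusted p = 0.391)), and the median log2 difference was 1.22. Each gene's lowest β library exceeded its highest α library for 7 members (11.9% of genes). Spc25 had 86.9, 141 and 318 CPM in CTR β libraries, against 9.53, 21.3 and 46.7 CPM in CTR α libraries, a log2 difference of 2.76 ± 0.20 (SE, edgeR adjusted p = 4.02e-11). The ranges did not overlap. Racgap1, the GTPase regulator of the midzone, had 14.3, 19.7 and 26.9 CPM in CTR β and 6.25, 9.11 and 12.6 CPM in CTR α libraries, and a log2 difference of 1.09 ± 0.10 (SE, edgeR adjusted p = 2.87e-09). Tacc3 had 4.92, 6.29 and 9.19 CPM in CTR β and 2.94, 3.51 and 4.2 CPM in CTR α libraries, and a log2 difference of 0.88 ± 0.10 (SE, edgeR adjusted p = 7.43e-08). Macrophage markers differed between the same libraries, with 13 of 15 higher in CTR β than in CTR α cells. With their mean log2 CPM as a covariate, 13 of 40 members were called (24.4% of genes) at a median of 0.94.

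After DOX the gap was wider, for 32 members by the interaction above. All 40 members were higher in DOX β than in DOX α cells (71.2% of 15370 genes were called, 35.6% higher), with a median log2 difference of 2.34, and for 37 members no β library fell within the α range (11.2% of genes). Cdc20 had 7.12, 16.5 and 22.9 CPM in DOX β libraries, against 1.17, 2.39 and 2.82 CPM in DOX α libraries, a log2 difference of 2.76 ± 0.18 (SE, edgeR adjusted p = 2.56e-11). Racgap1 had 25, 35.4 and 61.3 CPM in DOX β and 7.72, 12 and 13.6 CPM in DOX α libraries, and a log2 difference of 1.71 ± 0.11 (SE, edgeR adjusted p = 2.15e-11). For Spc25, with 143, 211 and 296 CPM in DOX β and 12.5, 37.3 and 49.8 CPM in DOX α libraries, it was 2.62 ± 0.17 (SE, edgeR adjusted p = 1.59e-11). With the macrophage covariate, 34 members were called (17.2% of genes).

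The series concerns circadian clocks in β cell regeneration, so the members were also followed by time. A difference of the DOX effect between times was called for no member (0 of 40 called with edgeR, 0% of 15188 genes, 0 members with an unadjusted p under 0.05). The lowest unadjusted p values were those of Cdca8, Ccnb2 and Nuf2 (0.0711, 0.0903 and 0.135). In simulated counts with DOX effects at ZT12, ZT16 and ZT20 only, this test recovered 6.25% of 1.5-fold, 53.1% of 2-fold and 88.9% of 4-fold changes. It can therefore miss moderate differences between times. At single times the median log2 fold change was 1.53 at ZT0, 0.93 at ZT4, 2.17 at ZT8, 1.30 at ZT12, 1.92 at ZT16 and 1.56 at ZT20. With 2 libraries a side, 14 members were called at ZT0 (7.95% of genes), 0 at ZT4 (8.72%), 19 at ZT8 (1.96%), 0 at ZT12 (0.645%), 22 at ZT16 (4.55%) and 3 at ZT20 (2.73%). Every call was of a higher level, and in DOX β cells 29 members had their highest mean of the 6 times at ZT16 and 29 their lowest at ZT4. In CTR β cells 24 were highest at ZT12 and 20 lowest at ZT8.

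A 24 h rhythm in DOX β cells was called for 4 of 40 members, a share no higher than the 11.6% of all genes. The peaks of these 4 lay early in the dark phase. Foxm1 had an amplitude (mean to peak, log2) of 0.49 ± 0.09 (SE) and a peak at ZT 15 (adjusted p = 0.0237). For Cenpe, the kinesin that brings chromosomes to the plate, the values were 0.69 ± 0.15 (SE) and ZT 16.9 (adjusted p = 0.0394). Cenpf had 0.58 ± 0.13 (SE) and ZT 15.9 (adjusted p = 0.0396), and Mki67 had 0.54 ± 0.13 (SE) and ZT 16 (adjusted p = 0.0483). At ZT0, 4, 8, 12, 16 and 20, Mki67 averaged 33.4, 26.3, 43.4, 48.2, 71.9 and 47.1 CPM in DOX β cells, against 11.2, 8.74, 7.22, 17.7, 13.9 and 14.9 CPM in CTR β cells (2 libraries each). Foxm1 averaged 8.45, 7.37, 13.3, 16.1, 17.7 and 13.5 CPM in DOX β and 4.52, 4.97, 3.97, 7.04, 5.69 and 5.46 CPM in CTR β cells at these times. Over the 40 members the median amplitude in DOX β cells was 0.38, and 20 members had an unadjusted p under 0.05, as did 4326 of 13613 genes.

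These 4 calls rested on single libraries and settings. Leaving out 1 DOX β library, the count was 13 without ZT0 replicate 2, 4 without ZT0 replicate 1, ZT12 replicate 2 or ZT8 replicate 1, and 1 without ZT16 replicate 2, ZT20 replicate 2, either ZT4 library or ZT8 replicate 2. It was 0 without replicate 1 of ZT12, ZT16 or ZT20. Equal counts did not always hold the same members. Without ZT12 replicate 2 Mki67 lost the call, and without ZT8 replicate 1 both Mki67 and Cenpe did. The share of all genes called in each fit is not given here, so the counts describe stability alone. Foxm1 was called in 9 of these 12 fits, Cenpf in 4, Cenpe in 3 and Mki67 in 2. Without the run term, or with time as 6 levels in place of the cosine, 0 members were called. With the replicate number in place of the run, 1 was called, Foxm1, and the same holds with no filter on low counts.

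**Figure D5:**
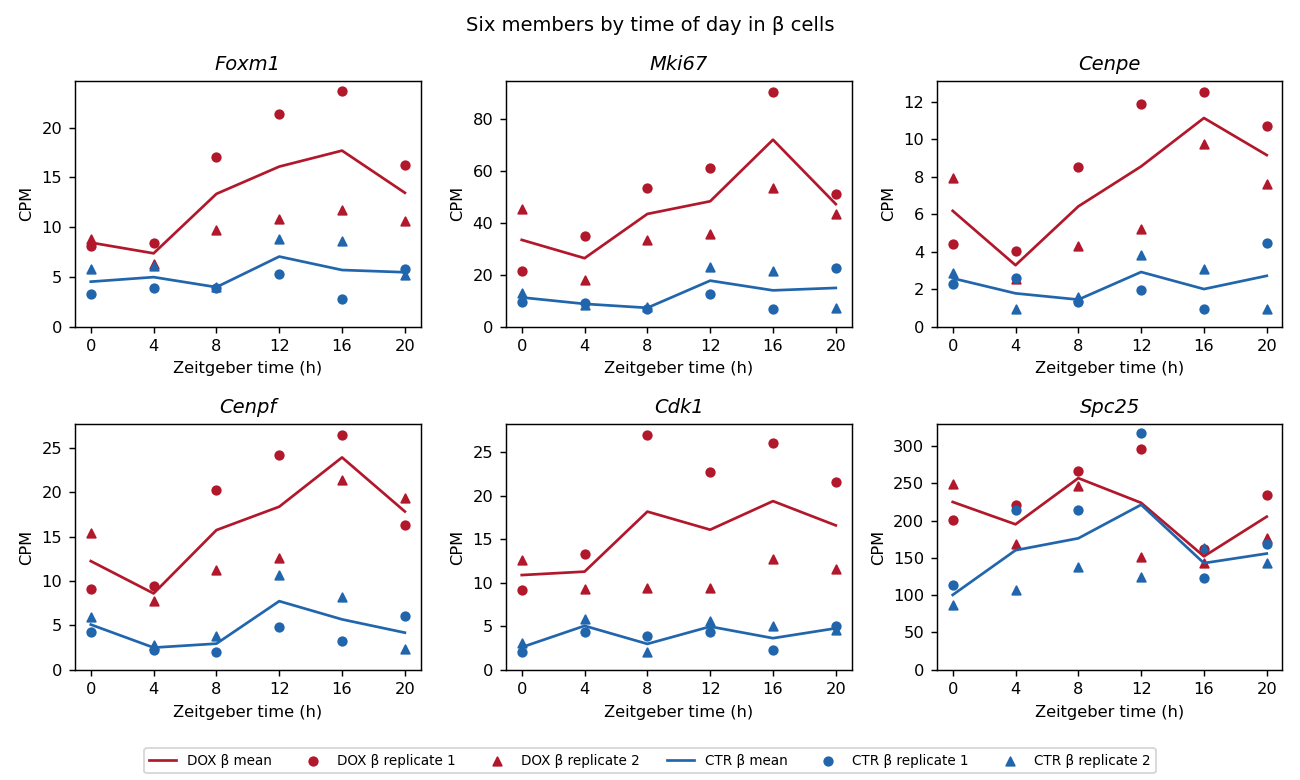
CPM by zeitgeber time in β cells for the 4 members with a called rhythm in DOX β cells and for Cdk1 and Spc25, with lines for the mean of 2 libraries, circles for replicate 1 and triangles for replicate 2. DOX means of every gene but Spc25 are highest at ZT16, and from ZT4 on, where replicate 1 is the earlier run, replicate 1 is the higher of the DOX duplicates except for Cenpf at ZT20. Spc25 levels of the groups overlap.

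In CTR β cells 0 of 39 tested were called with edgeR (2.17% of genes). In DOX α cells 0 of 32 were called (2.82% of genes), and in CTR α cells 2 of 30 were called (4.49% of genes). The median amplitude of the members tested was 0.26 in CTR β, 0.21 in DOX α and 0.38 in CTR α cells. Ccnb2 had an amplitude of 0.91 with a peak at ZT 9.1 (adjusted p = 0.0151), and Spc25 had 0.58 with a peak at ZT 22 (adjusted p = 0.0420). Ccnb2 lost the call without ZT8 replicate 2 or ZT20 replicate 2 of CTR α cells, and Spc25 in 9 of 12 such fits. A difference in rhythm between DOX and CTR β cells was called for no member (0 called with edgeR, 0 with an unadjusted p under 0.05, and 0% of all genes called).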

How the data were processed

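RNA of sorted β and α cells was sequenced in 48 libraries, 24 groups of 2. The deposited tables give, per gene, estimated counts that the authors did not normalize, and RPKM values, which equal each count scaled by the library's total and the gene's length, to a relative gap of 9.57e-10. Per the submitters' processing notes, bcl2fastq and STAR were used on GRCm38. The counting program and its settings are not given in the sources used here, and per the labels' protocols the library kit does not mark strand. Nearly all whole counts up to 20 were even (99.7 to 100% per library), so halved counts were tried as an alternative.

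Counts were rounded, and genes were kept with edgeR's filter on the conditions within each comparison (minimum count 10, minimum total 15). They were fitted with edgeR 4.0.16 in R 4.3.3 (TMM scaling, quasi-likelihood F test, terms for time and run, Benjamini-Hochberg adjustment over all genes tested, threshold 0.05). The interaction of treatment and cell type was fitted over all libraries, and rhythms as a cosine of 24 h. Standard errors come from the fitted coefficient. DESeq2 1.42.0 was an alternative. The fits were tested on simulated counts. Within β against α comparisons, libraries of the same number deviated together at every time (correlation 0.145 to 0.570 over 13723 genes). From ZT4 on the number goes with the run, so a pairing and a shared run difference cannot be told apart there. Fits blocked by time and number called 39 members in CTR and 40 in DOX mice, as without the block. Every column was matched to a sample.

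Members named with values were the 3 with the lowest p in DOX against CTR β cells in each role, the 2 largest and 2 smallest fold changes, members not called, and up to 3 with the lowest p in each other comparison. Of each pathway list, genes were taken from the 3 with the lowest p. Other names were chosen after their values were seen. The members and lists were chosen with earlier results of these data known.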

Additional observations from a re-analysis of the deposited data

Results flagged for a closer look

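The DOX effect differed between cell types. By the interaction term it was larger in β than in α cells for 32 of the 40 members. The difference was 0.757 on the log2 scale for Kif20a, 1.5 for Cdc20 and 1.25 for Ect2, the 3 with the lowest p. These calls passed in the later run alone for 5 members, the 3 named ones among them.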

How the results depend on the processing

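Few counts of called members moved by over 1.5 times, and no value reversed under the alternatives run. In α cells, 1 member (Top2a) was called with DESeq2 and 1 in the earlier run alone, against 0. The larger effect in β than in α cells was called for 5 members in the later run alone, against 32. With the macrophage covariate, 13 members were higher in CTR β than in CTR α cells, against 39. Rhythms in DOX β cells were called for 1 member with no filter, 0 without the run term and 0 with time as 6 levels, against 4, and in CTR α cells for 1, 1 and 0, against 2. In windows that end at the start, 29.4% of members (12.0% of tested genes) held the CHR letters, against 79.4% (13.5%), and 26.5% (4.74%) held them with CCAAT, against 67.6% (5.73%).

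Leaving out 1 library at a time gave 40 members higher after DOX in β cells, 0 in α cells, 28 to 36 for the difference, 38 to 39 and 40 for β over α cells in CTR and DOX mice, 0 to 13 rhythms in DOX β and 0 to 2 in CTR α cells, and 0 for the other time and run tests.

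DOX and CTR libraries of the same number did not deviate together at every time (correlation -0.385 in β cells at ZT0 and -0.608 in α cells), so the numbers were not taken to pair them. With the replicate number in place of the run as a term, 40 members were still called higher in DOX β cells, 34 for the interaction, 1 rhythm in DOX β and 1 in CTR α cells. Depth was lowest, 16.1 M counts, in the earlier run. Members at under 1 CPM are the least precise.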
